A study of Mus musculus with 39 samples.

Results

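The 28 genes described here encode cholesterol synthesis and its regulation by SREBP2, the sterol-regulated transcription factor. They were listed by symbol under a rule that takes symbols present in the counts table. Hence 28 of 28 symbols were found among its 16358 genes. They comprise 19 enzymes of the route from acetoacetyl-CoA to cholesterol (with Ggps1, which leads to another product), the sterol carrier Stard4, 4 regulators of SREBP2, the intestinal uptake and esterification genes Npc1l1 and Soat2, and Nr1h3 and Mylip of the LXR arm. RNA was taken from whole duodenum of male wild-type C57BL/6 mice of 8 weeks, all fitted with a cannula in the right lateral ventricle of the brain and fed standard chow. Drinking water was plain or, for 48 h, contained 2 antibiotics, neomycin at 0.5 g/L and ampicillin at 1 g/L. On day 3 after cannula placement, after 2 h without food, 3 µg of leptin or saline was injected into the ventricle, and the mice were killed 2 h later.

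The groups are named by injection and drinking water as Leptin-antibiotic, Saline-antibiotic, Leptin-water and Saline-water. The labels hold library names of 2 kinds, called set M and set MT here. There were 8 Saline-water and 7 Leptin-water libraries in set M. All 4 groups were present in set MT with 6 libraries per group, so that antibiotic was tested within set MT. The labels do not state that every library is a separate mouse, and p-values measure the spread between these samples, which may be technical. Both arms carried the cannula and the injection, and no group without surgery was analysed here.

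Cells make cholesterol from acetyl-CoA through mevalonate, the isoprenoid diphosphates, squalene and lanosterol. When sterol in the endoplasmic reticulum is low, SCAP carries SREBP2 to the Golgi, where it is cleaved, and the released fragment enters the nucleus and switches on genes of the pathway. When sterol is high, INSIG proteins hold SCAP back, and oxysterols activate LXR. Enterocytes of the small intestine also take up dietary and biliary cholesterol through NPC1L1, and SOAT2 esterifies it for packing into chylomicrons.

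SREBP2 acts on promoters together with NF-Y, which binds CCAAT, and SP1, which binds GC boxes. RefSeq promoters (GRCm38.p6) were matched by symbol for 23 of the 28 genes, in 30 entries, and the 250 bases before each start were searched on both strands. CCAAT was present for 20 of the 23 genes (87%) and for 15 of the 16 enzymes matched. Of all genes in the promoter table, 37.5% had it. GGGCGG was present for 19 of 23 genes (82.6%), against 35.4% of all genes in the promoter table. TCACNCCAC, the classical sterol response letters, was present for 1 gene, Hmgcs1, and for 1.22% of all genes in the promoter table. That table holds 27025 genes, more than the 16358 of the counts table, and no share over the latter was taken. A match of letters is a description of the window and not a measured site.

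4 windows of 250 bases are shown, each lying wholly before its gene in the annotation. Hmgcs1 is shown for its sterol response letters, and Mvk, Nsdhl and Mylip as members called with antibiotic. The windows are those of Hmgcs1 (chr13:119690101-119690350, plus strand), of Mvk (chr5:114444019-114444268, plus strand) and of Nsdhl (chrX:72918271-72918520, plus strand), enzymes of the route, and of Mylip (chr13:45389492-45389741, plus strand), the member that was lower with antibiotic. Capitals mark CCAAT as read on either strand and, in Hmgcs1, also the sterol response letters. CCAAT occurs 3 times in Hmgcs1, 5 times in Mvk, 2 times in Nsdhl and 3 times in Mylip.
Hmgcs1: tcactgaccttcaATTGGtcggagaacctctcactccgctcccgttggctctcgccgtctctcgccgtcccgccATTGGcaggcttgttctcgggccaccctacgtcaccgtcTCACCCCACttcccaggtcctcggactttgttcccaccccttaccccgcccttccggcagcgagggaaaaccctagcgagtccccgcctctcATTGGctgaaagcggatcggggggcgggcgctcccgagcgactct
Mvk: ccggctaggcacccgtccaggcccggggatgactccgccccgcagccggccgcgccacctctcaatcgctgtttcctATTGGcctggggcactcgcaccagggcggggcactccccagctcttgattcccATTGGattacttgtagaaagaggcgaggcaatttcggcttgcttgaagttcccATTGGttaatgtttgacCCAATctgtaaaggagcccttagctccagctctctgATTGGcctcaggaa
Nsdhl: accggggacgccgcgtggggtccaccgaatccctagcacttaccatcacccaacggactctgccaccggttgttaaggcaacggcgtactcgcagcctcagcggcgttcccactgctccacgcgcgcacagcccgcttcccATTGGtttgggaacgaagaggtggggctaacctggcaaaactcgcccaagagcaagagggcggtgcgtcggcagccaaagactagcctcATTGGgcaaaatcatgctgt
Mylip: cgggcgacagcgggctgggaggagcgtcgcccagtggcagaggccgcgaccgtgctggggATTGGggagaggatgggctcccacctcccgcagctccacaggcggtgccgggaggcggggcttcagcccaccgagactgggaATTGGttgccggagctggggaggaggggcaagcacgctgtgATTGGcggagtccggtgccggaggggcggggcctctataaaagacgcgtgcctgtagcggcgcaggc

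Library totals ran from 30207536 to 67870777 counts (median 48282125), and the lowest count of any member in any library was 140, for Mylip, so that depth allowed every member to be tested. The 10 enterocyte markers averaged 10.8 to 11.4 log2 CPM (read counts scaled to library size with TMM factors) over the 6 combinations of set and group. Genes of neighbouring organs were present unevenly. The 12 exocrine pancreas genes averaged 5.49 log2 CPM or more in 6 libraries, which were Saline-antibiotic 1, 2 and 5, Leptin-antibiotic 3 and Leptin-water 6 and 10, and at most 3.48 in the others. The 4 hepatocyte genes measured averaged 3.74 to 6.59 across set M. Across set MT they averaged −1.02 to 0.486, apart from 3.56 in Saline-antibiotic 2. In whole tissue, fewer cells of a type and less RNA per cell cannot be told apart.

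All members were expressed, with no count of 0, and together they took 1738 to 2494 CPM of a library. The 19 enzymes summed to 598.4 to 1055 CPM. Per kilobase of exon, averaged over the 6 combinations of set and group, Npc1l1, the brush border cholesterol transporter, had the highest level at 114.2 CPM per kb. It was followed by Insig1, which retains SCAP in the endoplasmic reticulum, at 46.39, and by Soat2, the enterocyte sterol acyltransferase, at 40.5 CPM per kb. Hmgcs1, which makes HMG-CoA, was the highest enzyme at 32.39 CPM per kb, above Ebp, a sterol isomerase, at 24.5 CPM per kb. The lowest levels were 2.191 CPM per kb for Lss, which closes the sterol rings, and 1.575 for Mylip, the ubiquitin ligase that degrades lipoprotein receptors. Exon length is the union of all annotated exons and not that of 1 transcript, and it was longest for Lss, at 10.79 kb. In CPM without this division, Lss was above Mvk, with means of 20.6 and 10.1 in Saline-water of set M. The spread within a combination of set and group (coefficient of variation) went from 5.95% for Scap to 16% for Mvk, so Npc1l1 (12.6%) stood clear of the next gene, while Mvk at 4.312, Pmvk at 4.743 and Mvd at 4.802 CPM per kb lay within their spread of each other.

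The clearest difference in the members was between antibiotic and water, compared within set MT. The ranges of the water groups given with it are those of set MT. Averaged over saline and leptin injection, 24 of 28 members had a positive log2 fold change, 8 were called higher and 1 lower at an adjusted p below 0.05 (edgeR quasi-likelihood test, Benjamini-Hochberg over all genes). Of all 16340 genes tested, 6.45% were called (4.24% higher and 2.22% lower) and 49.7% were positive. The median log2 fold change was 0.18 over the members and 0.21 over the 19 enzymes, of which 18 were positive and 6 were called. The size was modest, with no enzyme above 0.41 on the log2 scale. In the plot of the antibiotic effect by gene, all 19 enzymes lie right of 0 with saline and 16 of them with leptin.

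**Figure D1:**
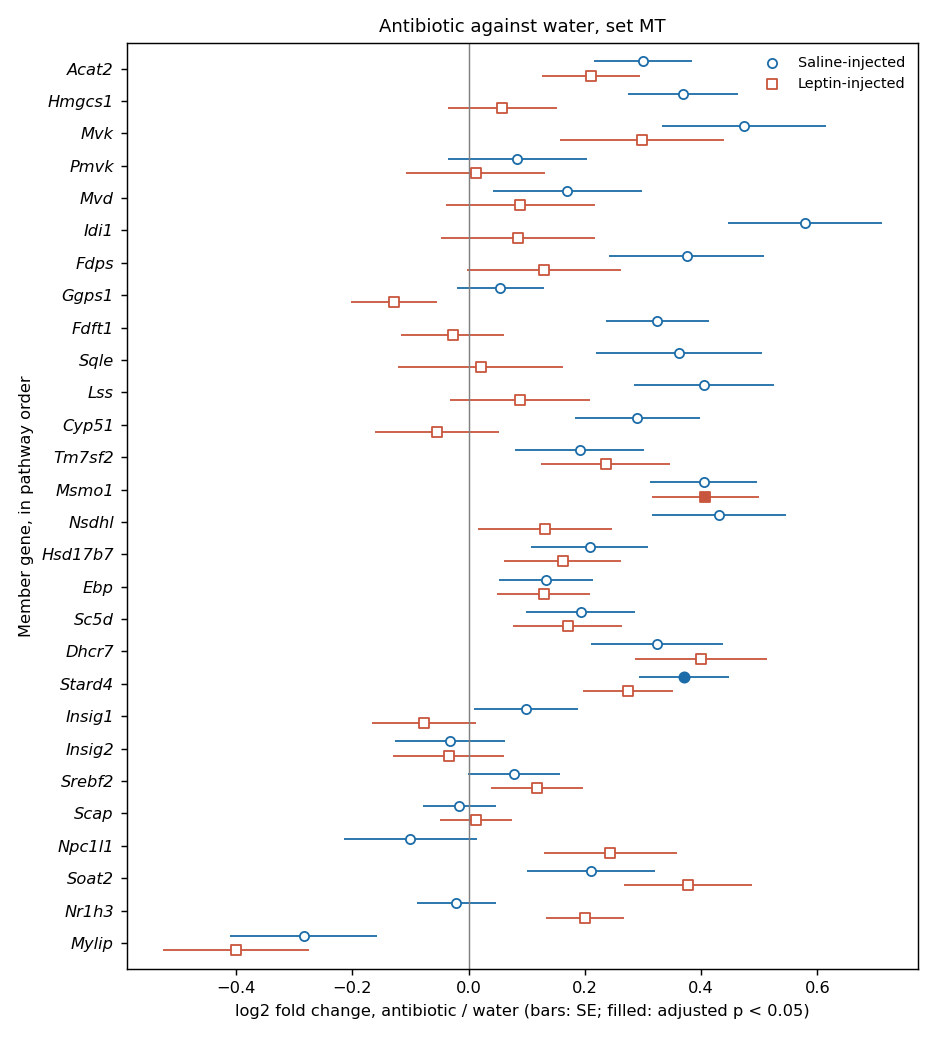
Log2 fold change of antibiotic over water for the 28 members in pathway order, with saline (circles) and with leptin (squares), bars showing 1 SE and filled symbols an adjusted p below 0.05. All 19 enzymes (Acat2 to Dhcr7) are positive with saline and 16 of 19 with leptin, and the filled points are Stard4 with saline and Msmo1 with leptin.

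At the start of the route, Acat2, the cytosolic thiolase that condenses acetyl-CoA, rose with antibiotic by 0.26 on the log2 scale (SE 0.06, adjusted p = 0.0116). Its lowest, median and highest CPM were 21.3, 24.5 and 27.2 in Saline-water, 22.6, 25.3 and 27.5 in Leptin-water, 26.9, 29.8 and 33.1 in Saline-antibiotic and 23.9, 29.0 and 34.8 in Leptin-antibiotic. Saline-antibiotic was high as a group, with its lowest value just below the highest of Saline-water, and Leptin-antibiotic overlapped with water. Reads of Acat2 may be shared with its close paralog Acat3. Hmgcs1 had a log2 fold change of 0.21 (SE 0.07) and missed the threshold (adjusted p = 0.0537).

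Mvk, which phosphorylates mevalonate, rose by 0.39 (SE 0.10, adjusted p = 0.0216). The CPM of Mvk had a lowest, median and highest value of 8.55, 9.86 and 13.7 in Saline-water, 8.88, 10.3 and 12.6 in Leptin-water, 12.7, 13.8 and 20.4 in Saline-antibiotic and 10.6, 11.9 and 16.5 in Leptin-antibiotic. The groups overlapped, and the highest value was that of Saline-antibiotic 3. Without Leptin-water 9 the adjusted p of Mvk was 0.0529.

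Idi1, which isomerises isopentenyl diphosphate, rose by 0.33 (SE 0.09, adjusted p = 0.0361). Its CPM had a lowest, median and highest value of 25.8, 34.1 and 51.0 in Saline-water, 30.5, 34.6 and 43.5 in Leptin-water, 41.3, 49.8 and 64.9 in Saline-antibiotic and 32.5, 37.7 and 42.7 in Leptin-antibiotic. Saline-antibiotic was the high group, above all Saline-water libraries but replicate 9, and Leptin-antibiotic lay among the water libraries. Leaving out 1 library at a time kept the call of Idi1 in 13 of 24 cases. It was lost without Saline-water 10, 11 or 12, Leptin-water 9 or 11, Saline-antibiotic 1, 3 or 4, or Leptin-antibiotic 2, 4 or 6. The other enzymes up to farnesyl diphosphate, Pmvk, Mvd and Fdps, had log2 fold changes of 0.05, 0.13 and 0.25 and were not called. Of the Fdps exon length, 26.7% overlaps Gm43738 on the same strand, and the 2 genes may share reads. Ggps1, which makes geranylgeranyl diphosphate for protein prenylation, was the 1 enzyme below 0, at −0.04 (SE 0.05).

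None of the 3 enzymes from squalene synthesis to lanosterol was called by edgeR, DESeq2 or limma voom, and 2 had an unadjusted p below 0.05 (22.8% of all genes). Fdft1, the squalene synthase, had a log2 fold change of 0.15, Sqle, the epoxidase that is a rate-limiting step, 0.19, and Lss 0.25 (adjusted p = 0.0785). Part of the Fdft1 exons (18.3%) overlaps the exons of Ctsb on the opposite strand, and the strand setting of the counting is not given in the sources used here.

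After lanosterol, all 8 enzymes were positive and 3 were called. Msmo1, the C4-methyl oxidase, rose by 0.41 (SE 0.07, adjusted p = 0.000687), the largest log2 fold change among the members. As lowest, median and highest CPM, Msmo1 had 39.9, 45.2 and 57.2 in Saline-water, 50.6, 54.7 and 60.4 in Leptin-water, 59.3, 60.3 and 77.9 in Saline-antibiotic and 62.4, 71.3 and 82.0 in Leptin-antibiotic. Every antibiotic library was above every water library of the same injection, a separation seen in 0.392% of all genes with saline and in 1.83% with leptin. Msmo1 was called without any 1 of the 24 libraries.

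Dhcr7, the last enzyme of one branch, which reduces 7-dehydrocholesterol, rose by 0.36 (SE 0.08, adjusted p = 0.00797). Its lowest, median and highest CPM were 25.9, 34.4 and 47.8 in Saline-water, 31.8, 34.6 and 39.4 in Leptin-water, 38.3, 44.8 and 48.5 in Saline-antibiotic and 36.6, 43.4 and 57.0 in Leptin-antibiotic. The medians were apart while the ranges overlapped for both injections, with Saline-water 9 and 13 above the lowest Saline-antibiotic library and Leptin-water 12 above the lowest Leptin-antibiotic library. Nsdhl, the sterol C4 decarboxylase, rose by 0.28 (SE 0.08, adjusted p = 0.0392) and kept its call in 12 of 24 leave-one-out fits. It was lost without Saline-water 10, 11, 12 or 14, Leptin-water 8, 9 or 13, Saline-antibiotic 1, 3 or 4, or Leptin-antibiotic 2 or 3. The lowest, median and highest CPM of Nsdhl were 11.7, 14.2 and 18.1 in Saline-water, 12.5, 16.8 and 18.2 in Leptin-water, 16.3, 18.6 and 23.2 in Saline-antibiotic and 15.1, 16.4 and 21.9 in Leptin-antibiotic, with overlap for both injections. Cyp51, Tm7sf2, Hsd17b7, Ebp and Sc5d had log2 fold changes of 0.12 to 0.21 and were not called. For Tm7sf2, 12.1% of the exon length overlaps Vps51 on the same strand.

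Stard4, a soluble carrier that moves sterol between membranes, rose by 0.32 (SE 0.05, adjusted p = 0.00101). The CPM of Stard4 had a lowest, median and highest value of 122, 139 and 165 in Saline-water, 125, 134 and 177 in Leptin-water, 164, 183 and 190 in Saline-antibiotic and 158, 168 and 186 in Leptin-antibiotic. The antibiotic libraries formed the upper part of the range in set MT, and 1 water library of each injection reached into it. Water libraries of set M reached 164 CPM with saline and 162 CPM with leptin, also within the antibiotic range. Stard4, like Msmo1, was called in every leave-one-out fit.

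None of the 4 regulators was called with antibiotic by edgeR, and none had an unadjusted p below 0.05. Srebf2, which encodes SREBP2, had a log2 fold change of 0.10 (SE 0.06), Insig1 of 0.01 and Insig2 of −0.03, and Scap had an adjusted p of 0.989. Npc1l1 had 0.07 (SE 0.08). Soat2 rose by 0.29 (SE 0.08, adjusted p = 0.0237). As lowest, median and highest CPM, Soat2 had 74.3, 80.0 and 95.7 in Saline-water, 65.6, 83.9 and 88.2 in Leptin-water, 77.5, 94.5 and 113 in Saline-antibiotic and 90.5, 98.6 and 139 in Leptin-antibiotic. Within set MT the leptin groups did not overlap (1.83% of all genes) and the saline groups did. Leptin-water of set M ran from 83.1 to 109 CPM and overlapped Leptin-antibiotic. The call of Soat2 was lost without Leptin-water 9 or without Saline-antibiotic 4.

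In the LXR arm 1 of the 2 genes was called. Nr1h3, which encodes LXR alpha, had a log2 fold change of 0.09 (SE 0.05) and was not called. Mylip, a target of LXR, fell by 0.34 (SE 0.09, adjusted p = 0.0228). Its lowest, median and highest CPM were 4.22, 5.45 and 7.57 in Saline-water, 5.14, 5.98 and 6.38 in Leptin-water, 3.36, 4.56 and 5.69 in Saline-antibiotic and 3.87, 4.28 and 4.96 in Leptin-antibiotic. Within set MT, all Leptin-antibiotic libraries were below all Leptin-water libraries (0.912% of all genes), and the saline groups overlapped. Leptin-water of set M, from 4.14 to 5.87 CPM, overlapped Leptin-antibiotic.

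**Figure D2:**
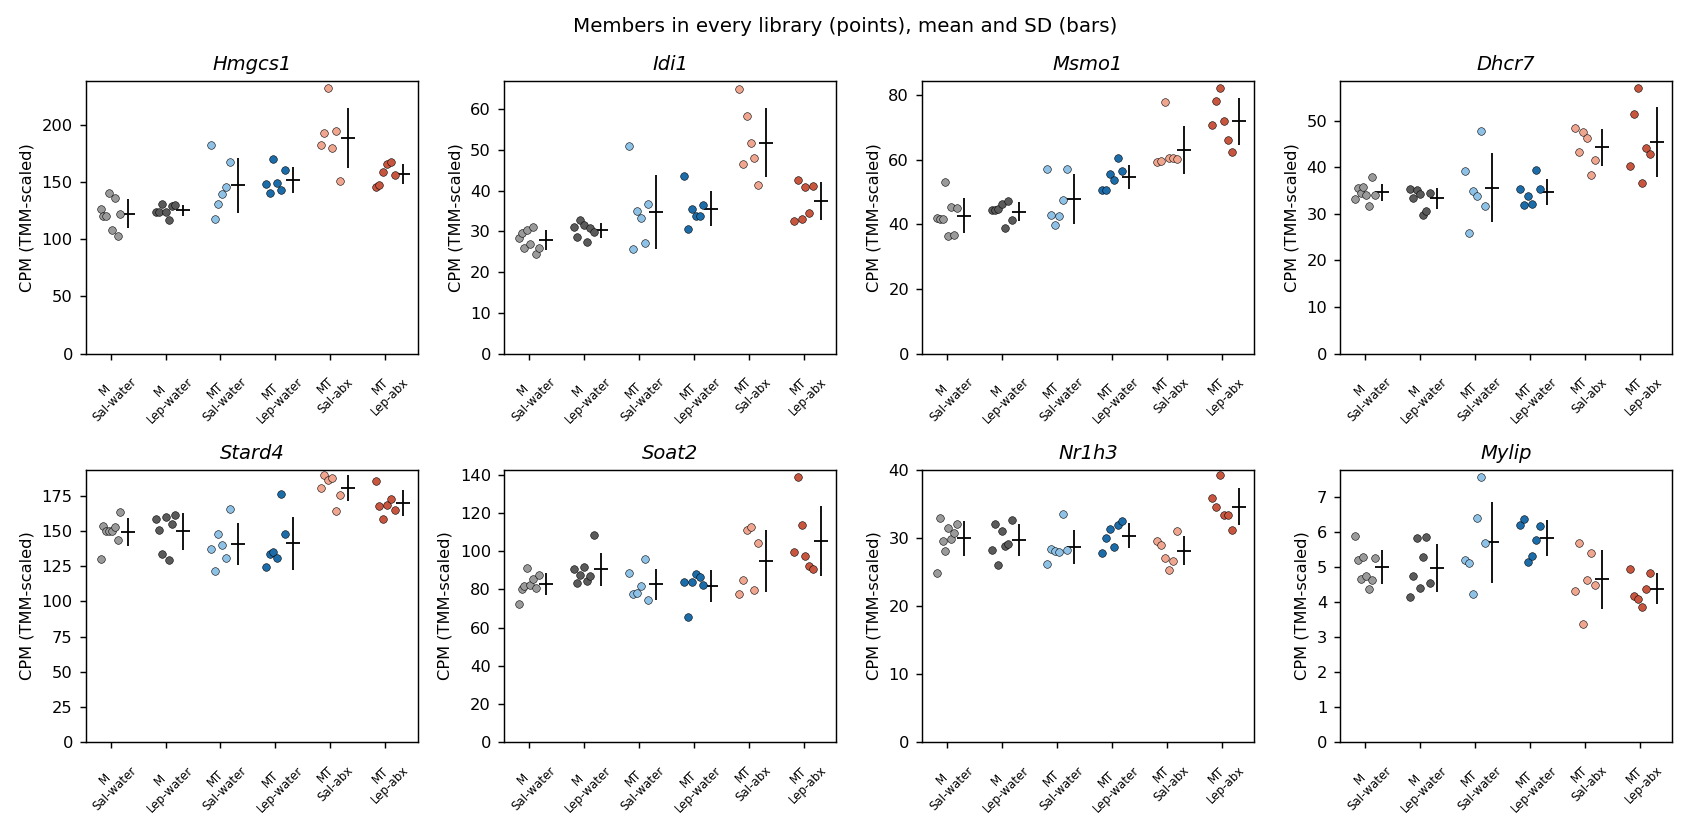
CPM of 8 members in each of the 39 libraries (points), with the mean and SD of each set and group (bars), the axes starting at 0. Msmo1 separates antibiotic from water within each injection, Idi1 and Hmgcs1 are highest in Saline-antibiotic, Nr1h3 is highest in Leptin-antibiotic, and Mylip is lower with antibiotic.

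Values of other cell types moved with antibiotic as well. All 10 enterocyte markers were positive (median log2 fold change 0.28, 4 called higher), as were all 7 smooth muscle markers (median 0.28, 2 called), and all 6 immune markers were negative (median −0.30, 1 called). The 12 exocrine pancreas genes were all positive (median 2.18, none called by edgeR, 3 with an unadjusted p below 0.05). With the enterocyte and crypt list means as covariates, chosen after seeing the data, 3 members were called, namely Idi1 (0.42, adjusted p = 0.0295), Msmo1 (0.26, adjusted p = 0.0415) and Stard4 (0.27, adjusted p = 0.0237). Of all genes, 835 were called in this fit, against 1054 in the main fit. In that fit Soat2 was at 0.04 (adjusted p = 0.804), Mylip at −0.28 (adjusted p = 0.161) and Dhcr7 at 0.24 (adjusted p = 0.117). With the pancreas, smooth muscle and stomach list means as 3 covariates 11 members were called, Idi1 not among them (0.28, adjusted p = 0.107). The calls over all genes rose to 2022 in that fit. The part of the immune markers in the result was not tested. Leaving out the libraries rich in pancreas RNA, 9 members were called, with Msmo1 at 0.43, Stard4 at 0.34, Soat2 at 0.39 and Mylip at −0.43, while Idi1 (adjusted p = 0.0709) and Nsdhl (adjusted p = 0.0554) were not. Over all genes, 1413 were called without these libraries.

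Split by injection, antibiotic with saline gave 1 called member, Stard4 (0.37, SE 0.08, adjusted p = 0.0398), against 0.196% of all genes called. All 19 enzymes were positive (51.8% of all genes) with a median of 0.32, and 14 of 28 members had an unadjusted p below 0.05 (12.5% of all genes). The largest log2 fold change was that of Idi1 at 0.58 (SE 0.13, adjusted p = 0.0613), followed by Mvk at 0.47. Hmgcs1 had 0.37 (adjusted p = 0.094). The CPM of Hmgcs1 had a lowest, median and highest value of 117, 142 and 182 in Saline-water and 151, 188 and 232 in Saline-antibiotic, and the groups overlapped through the highest water libraries, replicates 9 and 14.

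Antibiotic with leptin also gave 1 called member, Msmo1 (0.41, SE 0.09, adjusted p = 0.0214), against 2.28% of all genes. Here 22 members and 16 enzymes were positive (47.8% of all genes), the median over the enzymes was 0.13, and 10 members had an unadjusted p below 0.05 (18.9% of all genes). Dhcr7 at 0.40 (adjusted p = 0.057), Stard4 at 0.27 (adjusted p = 0.0559) and Soat2 at 0.38 (adjusted p = 0.0627) missed the threshold. Idi1 had 0.08 and Hmgcs1 0.06. The 2 comparisons use different libraries from 1 fit, and 19 of 28 members (67.9%) were positive in both, as were 30.5% of all genes.

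Both single calls depended on which libraries were in the fit. Stard4 with saline was called in 12 of 24 leave-one-out fits, and not without Saline-water 10, 11, 12 or 13, Leptin-water 9, Saline-antibiotic 1, 2, 3, 4 or 6, or Leptin-antibiotic 4 or 6. Msmo1 with leptin was called in 19 of 24, and not without Leptin-water 8, 9 or 11 or Leptin-antibiotic 2 or 3. Saline-water 9 had an enzyme mean of 5.08 log2 CPM while its group had a median of 4.79. Without it, 6 members were called with saline and 12 averaged over both injections. Without Leptin-water 9, 5 members were called over both injections (Acat2, Msmo1, Dhcr7, Stard4 and Mylip). The exocrine pancreas list was high in 3 of 6 Saline-antibiotic and 1 of 6 Leptin-antibiotic libraries, and without the libraries high in it no member was called for either injection alone, while 9 were over both. Of all genes, 17 were then called with saline, 205 with leptin and 1413 over both.

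The mean log2 CPM of the 19 enzymes summarises the pattern by library. It was 4.80 ± 0.177 (SD, n = 6) in Saline-water of set MT, 4.85 ± 0.0753 in Leptin-water, 5.09 ± 0.148 in Saline-antibiotic and 4.96 ± 0.119 in Leptin-antibiotic. In set M it was 4.72 ± 0.0918 (n = 8) in Saline-water and 4.71 ± 0.0696 (n = 7) in Leptin-water. Saline-antibiotic libraries lay between 4.95 and 5.36 and overlapped Saline-water through the single library at 5.08. Leptin-antibiotic libraries, between 4.77 and 5.13, overlapped Leptin-water, which reached 4.90.

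**Figure D3:**
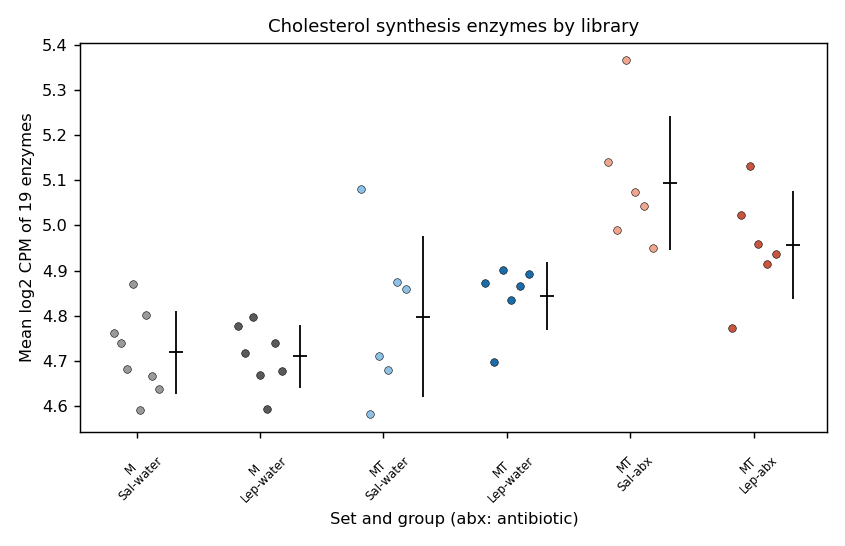
Mean log2 CPM of the 19 enzymes in each library (points) by set and group, with the group mean and SD (bars). The Saline-antibiotic libraries run from 4.95 to 5.36, and 1 Saline-water library of set MT, replicate 9, stands at 5.08 above the rest of its group.

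Leptin on antibiotic was compared over 6 Leptin-antibiotic and 6 Saline-antibiotic libraries, the latter being shared with the comparison of antibiotic with saline. 1 member was called, against 0.514% of all genes. It was Nr1h3, which rose by 0.31 (SE 0.07, adjusted p = 0.034). As lowest, median and highest CPM, Nr1h3 had 25.3, 28 and 31.0 in Saline-antibiotic and 31.2, 33.9 and 39.3 in Leptin-antibiotic, so that the groups did not overlap (1.6% of all genes). On water, set MT gave 26.2, 28.1 and 33.5 with saline and 27.8, 30.7 and 32.5 with leptin, which overlapped. The call held in 11 of 24 leave-one-out fits, and was lost without Saline-water 12 or 14, Leptin-water 9 or 10, any of Saline-antibiotic 1 to 5, or any of Leptin-antibiotic 1 to 4 (highest adjusted p = 0.130). Leaving out the libraries rich in pancreas RNA, the log2 fold change was 0.28 (adjusted p = 0.355). With enterocyte and crypt covariates it was 0.24 (adjusted p = 0.516), and all 10 enterocyte markers were positive in this comparison (median 0.33, none called, 6 with an unadjusted p below 0.05).

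The synthesis enzymes gave no call for leptin on antibiotic with edgeR. Of the 19, 6 had a positive and 13 a negative log2 fold change (46.4% of all genes were positive, median of the enzymes −0.14) and 7 an unadjusted p below 0.05, of 8 among all members (17.2% of all genes). All 11 enzymes from Acat2 to Lss were negative. Idi1 had −0.46 (SE 0.13, adjusted p = 0.101), Sqle −0.36 and Lss −0.31. Cyp51, the lanosterol demethylase, had −0.31 (adjusted p = 0.161) and Hmgcs1 −0.26 (adjusted p = 0.172). Of the 8 enzymes from lanosterol on, 6 were positive, Msmo1 highest at 0.20 (SE 0.09).

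Averaged over water and antibiotic within set MT, leptin gave 1 called member, Nr1h3 (0.20, adjusted p = 0.0391), against 1.18% of all genes, and 12 of 28 were positive (47.1% of all genes). It kept this call in 8 of 24 leave-one-out fits, with an adjusted p of up to 0.0917.

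On water, no member passed the test for leptin. Over the 27 libraries on water, fitted with a term for set, 0 of 28 members were called by edgeR (0.312% of all genes), and 0 by DESeq2 or limma voom. 1 member, Scap, which escorts SREBP2, had an unadjusted p below 0.05 (11.4% of all genes), at −0.08 on the log2 scale (SE 0.03, adjusted p = 0.297). 15 members were positive (47.1% of all genes) and the median was 0.01. Set M alone gave 0 calls (0.0306% of all genes) and 4 members with an unadjusted p below 0.05 (14.9% of all genes), among them Ebp at −0.16 (adjusted p = 0.159) and Scap at −0.11. Ebp CPM in set M had a lowest, median and highest value of 48.3, 53.2 and 57.9 with saline and 44.9, 47.5 and 52.2 with leptin, and the groups overlapped. Set MT alone gave 0 member calls by edgeR (0% of all genes), DESeq2 (5 of all genes called) or limma voom (0 of all genes called). By edgeR, 1 member had an unadjusted p below 0.05 (7.31% of all genes), Msmo1 at 0.20 (adjusted p = 0.671).

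**Figure D4:**
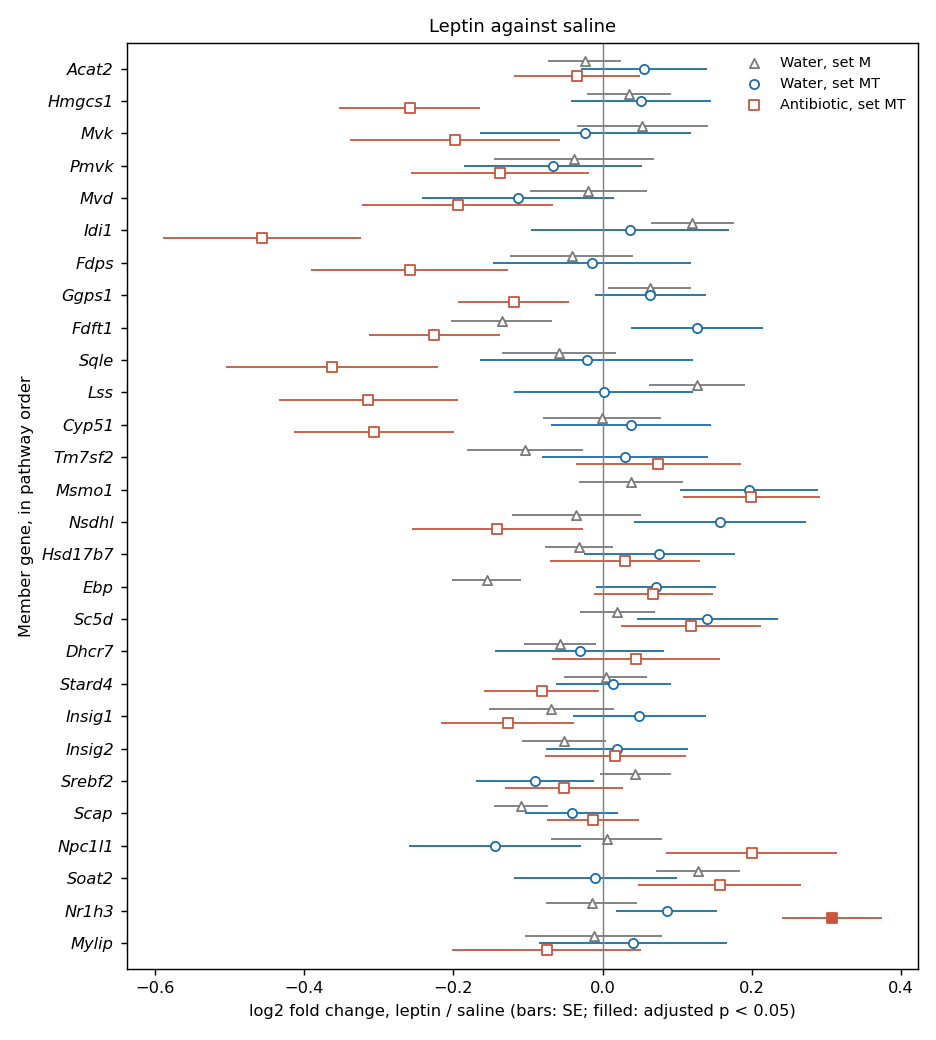
Log2 fold change of leptin over saline for the 28 members in pathway order, on water in set M (triangles) and set MT (circles) and on antibiotic (squares), bars showing 1 SE and filled symbols an adjusted p below 0.05. The values on water lie near 0, and on antibiotic the genes from Hmgcs1 to Cyp51 are negative and Nr1h3 is the filled point.

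Whether leptin acted differently on antibiotic than on water was tested as an interaction in set MT. No member was called by edgeR, DESeq2 or limma voom (0% of all genes), and 6 had an unadjusted p below 0.05 (6.38% of all genes). These were Fdft1 at −0.35 (leptin effect on antibiotic minus that on water), Idi1 at −0.49, Hmgcs1 at −0.31, Cyp51 at −0.34, Nr1h3 at 0.22 and Npc1l1 at 0.34, each with an adjusted p of 0.772. Fdft1 CPM had a lowest, median and highest value of 23.8, 26.6 and 31.6 in Saline-water, 26.5, 29.5 and 32.2 in Leptin-water, 29.8, 32.7 and 39.5 in Saline-antibiotic and 24.5, 28.1 and 35.4 in Leptin-antibiotic. The ranges overlapped, with Saline-antibiotic highest. The interaction is the same contrast as the difference of the antibiotic effect between injections, so the values with saline and with leptin given above are not shown to differ.

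A difference of the leptin effect on water between the sets was tested in the 27 water libraries. No member was called by edgeR (0.0428% of all genes), DESeq2 (75 of all genes called) or limma voom (0 of all genes called). By edgeR, 2 members had an unadjusted p below 0.05 (9.86% of all genes). They were Ebp, at 0.23 (set MT minus set M, adjusted p = 0.299), and Fdft1, at 0.27.

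Between the sets, in Saline-water, 3 members were higher and 2 lower in set MT than in set M. Of all genes 17.3% were called, so these 5 of 28 are a share near the background and no result about the members. Hmgcs1 was higher by 0.26 (SE 0.08, adjusted p = 0.0211), with a lowest, median and highest CPM of 103, 121 and 141 among set M libraries and 117, 142 and 182 among set MT libraries. Idi1 was higher by 0.32 (SE 0.10, adjusted p = 0.0363), with 24.4, 27.7 and 31.1 CPM among the former and 25.8, 34.1 and 51.0 among the latter. The ranges of both genes overlapped. The call of Hmgcs1 was kept in 25 of 27 leave-one-out fits and lost without Saline-water 9 or 14, and that of Idi1 was kept in 22 of 27 and lost without Saline-water 3, 5, 7, 9 or 14 (highest adjusted p = 0.115).

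Ggps1 was higher in set MT by 0.19 (adjusted p = 0.0231). Scap was lower, at −0.18 (adjusted p = 0.00761). Tm7sf2, a sterol C14 reductase, was lower, at −0.32 (SE 0.09, adjusted p = 0.015), with 11.1, 12.7 and 14.2 CPM (set M) against 8.66, 10.1 and 11.1 (set MT). For Tm7sf2 all set MT libraries were below all set M libraries, as for 2.08% of all genes. The sets also differed in the hepatocyte genes given above, and the set and whatever else differed between these libraries cannot be told apart.

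Many enzymes of the route varied together from library to library, Msmo1 and Nsdhl after lanosterol among them. After the mean of each set and group was subtracted, the median pairwise correlation of log2 CPM over the 39 libraries was 0.435 for the 171 pairs of enzymes, 0.194 for the 378 pairs of members and −0.006 for all genes. These values share libraries, depth and tissue composition and are given as a description. Hmgcs1 was closest to Cyp51 (0.772), Sqle (0.732), Hsd17b7 (0.701) and Msmo1 (0.698). Its correlation with Ggps1 was 0.0547, with Sc5d 0.0796 and with Stard4 0.169.

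A few members followed the enterocyte markers more than the other enzymes. Sc5d, the lathosterol oxidase, had a correlation of 0.873 with the mean of the enterocyte list, Npc1l1 of 0.678 and Soat2 of 0.674. Hmgcs1 had −0.0834 and Sqle −0.25 with the same list. Srebf2 had a median correlation of 0.442 with the enzymes, and Nr1h3 of −0.12. Stard4, called with antibiotic, had 0.0302.

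**Figure D5:**
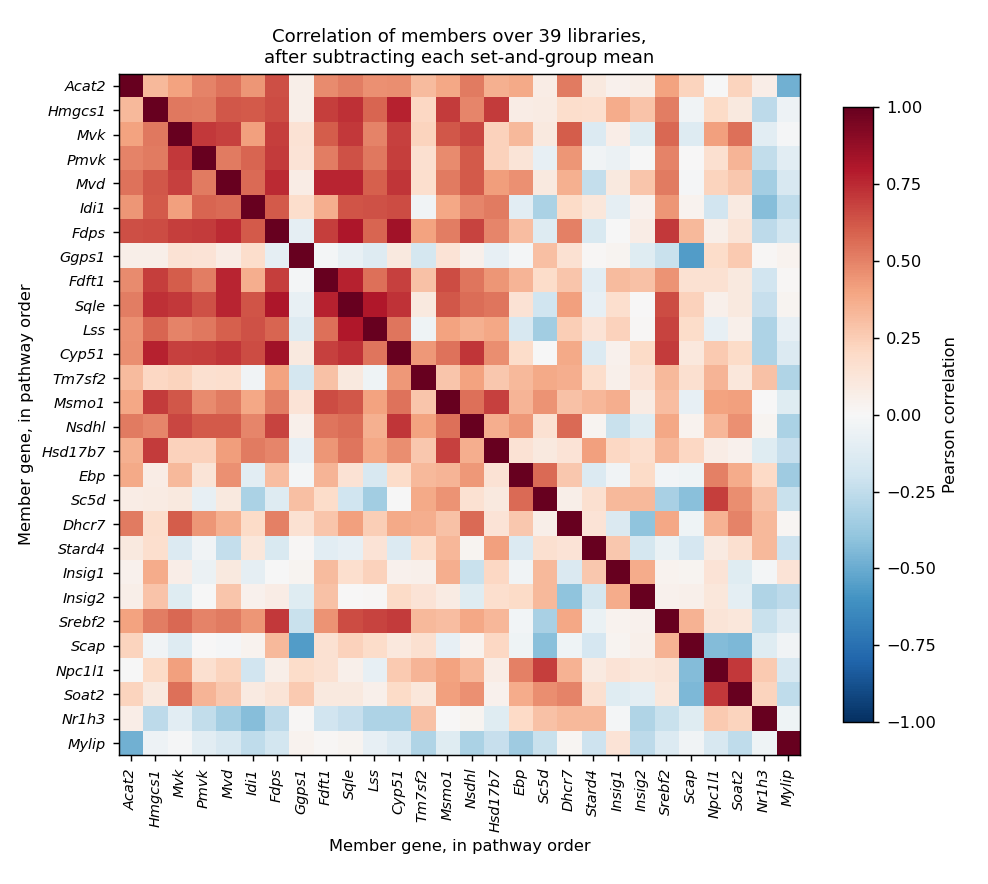
Pearson correlation of log2 CPM for each pair of the 28 members over 39 libraries, in pathway order on both axes, after subtracting the mean of each set and group (red positive, blue negative). The block from Acat2 to Cyp51 is mostly red apart from Ggps1, while Npc1l1 and Soat2 are red with each other and with Sc5d.

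Other genes of sterol metabolism were counted as lists. Averaged over both injections, 2 of 9 genes of sterol sensing and SREBP processing were called higher with antibiotic and none lower, beside 4.24% of all genes higher and 2.22% lower. They were Erlin1 (0.30, adjusted p = 0.00657) and Erlin2 (0.13, adjusted p = 0.0375), which take part in the degradation of sterol-regulated proteins of the endoplasmic reticulum. Of 10 genes of sterol traffic and storage, Tmem97, a sterol-responsive membrane protein (0.30, adjusted p = 0.0462), and Osbp, an oxysterol-binding exchanger (0.13, adjusted p = 0.0391), were higher. Of 8 genes of isoprenoid use, Pdss1, which makes the side chain of ubiquinone (0.23, adjusted p = 0.0226), was higher. None of the 4 genes of acetyl-CoA supply and none of the 6 other SREBP or LXR targets was called by edgeR, with 2 of each list at an unadjusted p below 0.05, as were 22.8% of all genes.

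In these lists, Erlin2 was called in antibiotic with leptin (0.19, adjusted p = 0.0489), where 2.28% of all genes were called. None was called in antibiotic with saline or in a leptin comparison. The lists had medians of 0.07 for sensing and processing, 0.05 for isoprenoid use, −0.01 for traffic and storage, 0.09 for acetyl-CoA supply and −0.13 for the other targets in antibiotic averaged over both injections, beside 0.21 for the 19 enzymes.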

How the data were processed

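The authors deposited 1 table of raw read counts, with 16358 gene symbols and a column for each of 39 duodenal libraries. Per the labels' protocols, 150 ng of total RNA per sample was depleted of ribosomal RNA and made into stranded libraries for paired-end reads. Per the submitters' processing notes, the build was mm10 and the tools included featureCounts, HISAT2, FastQC and edgeR 3.42.0. What annotation, strand setting and filter rule were used is not given in the sources used here. Residual ribosomal RNA (Rn45s) took 2.87% to 13.3% of a library.

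The main test was the quasi-likelihood F test of edgeR 4.0.16 in R 4.3.3, with TMM factors and filterByExpr, and a Benjamini-Hochberg adjusted p below 0.05 over the whole table as the threshold. All 28 members passed the filter in every fit. Leptin on water used 27 libraries with set as a term, and the comparisons within set MT used 1 fit of 24 libraries. An SE is the size of the fold change (log2) divided by the root of F. Log2 CPM used a prior count of 2. Alternatives were DESeq2 1.42.0, limma voom (limma 3.58.1), other scaling, no filter, covariates, a replicate block and leaving libraries out. Members were named in pathway order, with values by library for those past the threshold and otherwise for the 2 of lowest p in a comparison. The members, marker lists and pathway lists were chosen with earlier results of these data known. In 109 within-group library pairs, none agreed within sampling noise. Positions, exon lengths and overlaps are from GENCODE vM21. The procedure was tested on simulated data.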

Additional observations from a re-analysis of the deposited data

Results flagged for a closer look

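In 12 of 168 combinations of member, set and group, 1 library stood apart from the rest of its group by Dixon's criterion at 95%, where chance gives about 1 in 20 (8.4 of 168). Values are log2 CPM. In Saline-antibiotic, replicate 3 was high in Msmo1 (6.28, next library 5.92), Mvk (4.35, next 3.85) and Hsd17b7 (5.31, next 5.11), which are 3 of the enzymes. This library also had the highest enzyme mean, 5.36. In Saline-water of set MT, replicate 13 was high in Nr1h3 (5.07, next 4.83) and Ggps1 (5.18, next 4.97).

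In Leptin-antibiotic, replicate 1 was low in Cyp51 (5.64, next 5.91) and Srebf2 (7.3, next 7.48), and replicate 3, one of the libraries high in pancreas genes, was high in Ebp (6.32, next 5.94). In Leptin-water, replicate 13 was high in Srebf2 (7.65, next 7.39), replicate 9 of set MT was low in Soat2 (6.04, next 6.36), and replicate 7 of set M was high in Soat2 (6.76, next 6.52). In Saline-water of set M, replicate 5 was low in Lss (4.09, next 4.33).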

How the results depend on the processing

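Over 11 comparisons, no called member changed direction under any alternative. Counts of members called moved by over 1.5 times as follows, the cause being not tested. The count of all genes called also moved and follows for each comparison, except on leaving out 1 library. For antibiotic over both injections (9), limma voom gave 14, enterocyte and crypt covariates 3, and leaving out 1 library 5 (without Leptin-water 9) to 12. Of all genes (1054 in the main fit), voom called 2201 and the fit with these covariates 835. For antibiotic with saline (1), DESeq2 gave 5, voom 5, tissue covariates 4, upper quartile factors 0, the libraries without high pancreas genes 0, a fit of the 12 libraries alone 0, and leaving out 1 library 0 to 6. Of all genes (32 in the main fit), these alternatives called 183, 81, 184, 44, 17 and 0, in the order named. For antibiotic with leptin (1), DESeq2 gave 5, voom 6, tissue covariates 5, the fit of 12 libraries 3, the libraries without high pancreas genes 0, enterocyte and crypt covariates 0, and leaving out 1 library 0 to 5. Of all genes (372 in the main fit), these alternatives called 780, 1394, 1164, 509, 205 and 120, in the order named. For leptin on antibiotic (1), DESeq2 gave 2, and upper quartile factors, no high-pancreas libraries, tissue covariates, enterocyte and crypt covariates and the fit of 12 libraries each 0, with 0 to 2 on leaving out 1 library. Of all genes (84 in the main fit), these alternatives called 443, 51, 0, 0, 0 and 61, in the order named. For leptin over both waters (1), upper quartile factors, no filter, no high-pancreas libraries, and either set of covariates gave 0, with 0 to 1 on leaving out 1 library. Of all genes (192 in the main fit), these alternatives called 134, 167, 4, 1 and 1, in the order named. For set MT against set M (5), tissue covariates gave 3, and leaving out 1 library 3 (without Saline-water 9 or 14) to 6. Of all genes (2822 in the main fit), tissue covariates called 2029. Leptin on water, pooled or by set, and both difference tests gave 0 under every alternative.

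Replicate numbers showed no clear pairing of the libraries, though so few pairs cannot exclude one. Correlations of same-numbered libraries were −0.278 to 0.251 in set M, −0.152 to 0.0812 on water in set MT and −0.262 to 0.581 on antibiotic, and 2 of 7, 0 of 5 and 1 of 6 numbers matched best with themselves. With the replicate block, 0 members were called for leptin on antibiotic and 0 for leptin on water, pooled or by set. The count of all genes called for leptin on water was 51 without the block and 0 with it. The enterocyte and crypt covariates and the fits of 12 libraries were added after seeing the data.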
